A study of Mus musculus with 3 samples.

Results

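The genes described here make, regulate and break down the polyamines putrescine, spermidine and spermine, and were followed in skeletal muscle of mice. They are the 10 gene rows whose symbols are Odc1, Azin1, Oaz1, Amd1, Amd2, Srm, Sms, Sat1, Paox and Smox, out of 24481 rows in all. The members were chosen by pathway, with the log2 levels of these same libraries already known, so their levels and differences are a description and no test was made on them. Muscle of ICR mice, an outbred stock, was taken at postnatal day 42 from animals of 3 groups, labelled Exercise SQH, Exercise control and Control. By its title the study asked about fatigue and extracts of the leaves of a dwarf bamboo, Sasa quelpaertensis, but the labels do not spell out SQH and give no dose, exercise protocol or muscle, and do not say whether animals were pooled. Each group is 1 library of the 3' ends of messenger RNA, with about 12.4 M reads in Exercise SQH, 8.14 M in Exercise control and 10.8 M in Control. These depths were estimated from the spacing of the low values, because the deposited values are log2 levels. All 14 markers of muscle fibres, among them Acta1, Ckm and Ttn, were above 0 in every library.

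Polyamines are small positively charged molecules that bind RNA and are needed for translation and growth. Ornithine decarboxylase makes putrescine, and the aminopropyl groups that turn putrescine into spermidine and then spermine come from S-adenosylmethionine after adenosylmethionine decarboxylase has acted on it. Breakdown runs back from spermine either directly, through spermine oxidase, or through acetylation and then oxidation. In mice, the spermine oxidase transcript is known to be low in muscle that is wasting.

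With 1 library per group there is no replicate error and no p-value, and fewer cells of a type cannot be told apart from less RNA per cell. A gene was called higher or lower when its log2 levels differed by at least 1, which is 2-fold, among the 7857 rows whose mean linear value was at least 66.5. Of the 10 genes, 8 reached that minimum, and Oaz1 and Srm did not. The ± beside a difference is the standard error of counting reads, and an interval is the 95% counting interval. Neither covers the spread between animals or library preparations. The Exercise control library stood apart from both others in its slow-fibre, nerve and adipocyte transcripts. Its 16 slow-fibre markers summed to a linear level of 53688, against 572966 in Control, with 13 called lower, and none at 0. Its 9 nerve and Schwann cell markers summed to 4462, against 1272 in Control, with 5 called higher and none at 0. Of 10 adipocyte markers 3 were listed at 0 in that library, against 1 in Control, and the sums were 3933 in Exercise control and 5105 in Control. Fabp4, which was not called, weighed most in these sums, at a log2 level of 11.72 and 11.93. Of the 5 adipocyte markers past the minimum, 3 were called lower in Exercise control than in Control. In Exercise SQH against Exercise control 4 of these were called higher. In Exercise SQH the same lists summed to 456203, 1372 and 6207. The 14 fast-fibre markers summed to 653962 in Exercise SQH, 1.05e+06 in Exercise control and 776079 in Control. Of these, 1 was called higher in Exercise control than in Control, and 3 were called lower in Exercise SQH than in Exercise control. The 8 tendon and fibroblast markers, none at 0, summed to 8063 in Exercise SQH, 10127 in Exercise control and 6974 in Control, and 3 were called higher and 1 lower in Exercise control than in Control. The part of these markers in the differences below was not tested.

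**Figure D1:**
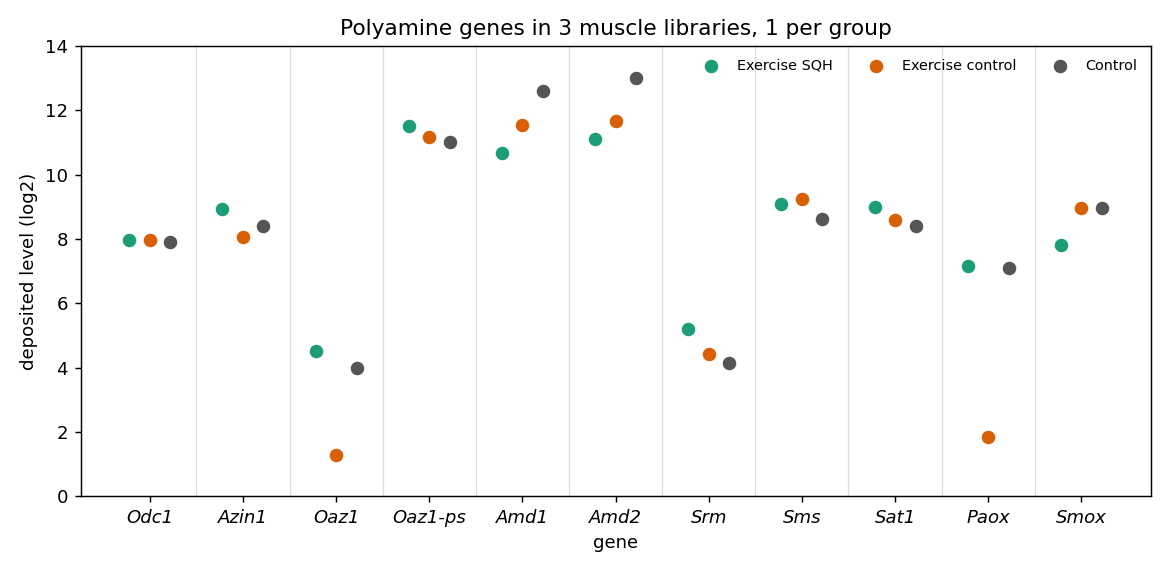
Deposited log2 level (vertical axis) of the 10 polyamine genes and of the pseudogene Oaz1-ps, with 1 point per library. Amd1 and Amd2 are lowest in Exercise SQH and highest in Control, Smox is low in Exercise SQH alone at 7.82, and Paox stands at 1.86 in Exercise control.

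Amd1 and Amd2 are both annotated as protein-coding genes of adenosylmethionine decarboxylase. Over the libraries their log2 levels spanned 1.92 and 1.89, more than any other member past the minimum except Paox, which spanned 5.31. Amd1 has 8 exons at chr10:40287458-40302186 on the minus strand of GRCm38, and Amd2 is a copy in 1 exon at chr10:35708675-35711892, also on the minus strand. The start regions of both genes are shown because they hold the point where the likeness of the copies begins. Capitals mark the longest run the windows share, 48 bases, which begins near the annotated start of each transcript. Upstream of it the windows differ. Both are from RefSeq on GRCm38.p6, at chr10:40302139-40302438 for Amd1 and chr10:35711842-35712141 for Amd2, read along the minus strand.
Amd1 start region: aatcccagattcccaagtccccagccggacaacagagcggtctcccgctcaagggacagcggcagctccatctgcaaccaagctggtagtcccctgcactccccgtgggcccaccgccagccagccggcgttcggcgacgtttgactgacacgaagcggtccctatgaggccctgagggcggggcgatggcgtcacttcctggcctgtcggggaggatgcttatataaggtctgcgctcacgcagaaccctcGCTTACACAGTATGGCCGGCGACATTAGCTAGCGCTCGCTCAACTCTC
Amd2 start region: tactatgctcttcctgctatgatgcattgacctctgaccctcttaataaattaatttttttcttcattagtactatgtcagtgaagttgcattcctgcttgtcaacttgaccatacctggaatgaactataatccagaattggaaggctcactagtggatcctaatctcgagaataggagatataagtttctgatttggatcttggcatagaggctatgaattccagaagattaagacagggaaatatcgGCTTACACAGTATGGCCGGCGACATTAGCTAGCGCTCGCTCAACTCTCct
Inside the shared run lies the short upstream reading frame of this messenger RNA, whose peptide is known to stall the ribosome when polyamines are plentiful. It is 21 bases long, with 6 codons before the stop, at chr10:40302155-40302175 in Amd1, and it is present in the Amd2 window without a change.
upstream reading frame: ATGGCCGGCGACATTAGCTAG
The likeness runs to the other end of the transcript, where a 3' library reads. In GENCODE M21, 345 of the 351 windows of 50 bases in the last 400 bases of the Amd1 transcript occur without a mismatch in the Amd2 transcript, or 98.3%, and with windows of 75 bases it is 320 of 326. The read length is not given in the sources used here. A level on either row is uncertain where reads can match both, so the sum of both rows is also given.

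Amd1 stood at 10.69 in Exercise SQH, 11.54 in Exercise control and 12.60 in Control. Amd2 stood at 11.11, 11.68 and 12.99 in the same order. Both rows give the order Exercise SQH, Exercise control, Control from low to high. Added together on the linear scale, the pair reached 3850 in Exercise SQH, 6250 in Exercise control and 14364 in Control, from about 5013, 5266 and 15305 reads. Amd1 held 42.8%, 47.6% and 43.3% of the sum.

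Against Control, the summed Amd level was 3.73-fold lower in Exercise SQH (log2 difference -1.90 ± 0.023) and 2.30-fold lower in Exercise control (-1.20 ± 0.023). Exercise SQH against Exercise control gave -0.70 ± 0.028, which did not reach 2-fold. Row by row, Amd1 differed from Control by -1.92 ± 0.036 in Exercise SQH and by -1.06 ± 0.034 in Exercise control, and Amd2 by -1.89 ± 0.031 and -1.315 ± 0.032. In Exercise SQH against Control they had the 8th and 9th most negative differences of all 7857 rows, and in Exercise control against Control the 353rd and 213th. Amd1 in Exercise control was past the size rule by little, and it missed the rule with each library centred on its median (-0.99) and after quantile normalization (-0.96). The summed level, -1.20 as deposited, was -1.13 after centring and -1.09 after quantile normalization, past the rule in both. In Exercise SQH against Control the median difference was -0.33 for the slow-fibre, -0.31 for the fast-fibre and 0.05 for the nerve markers. None was called in these lists. In the same comparison 1 adipocyte marker, Cfd, was called higher (1.22), as were 2 of the 8 tendon and fibroblast markers, Tnmd (1.74) and Fmod (1.19).

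**Figure D2:**
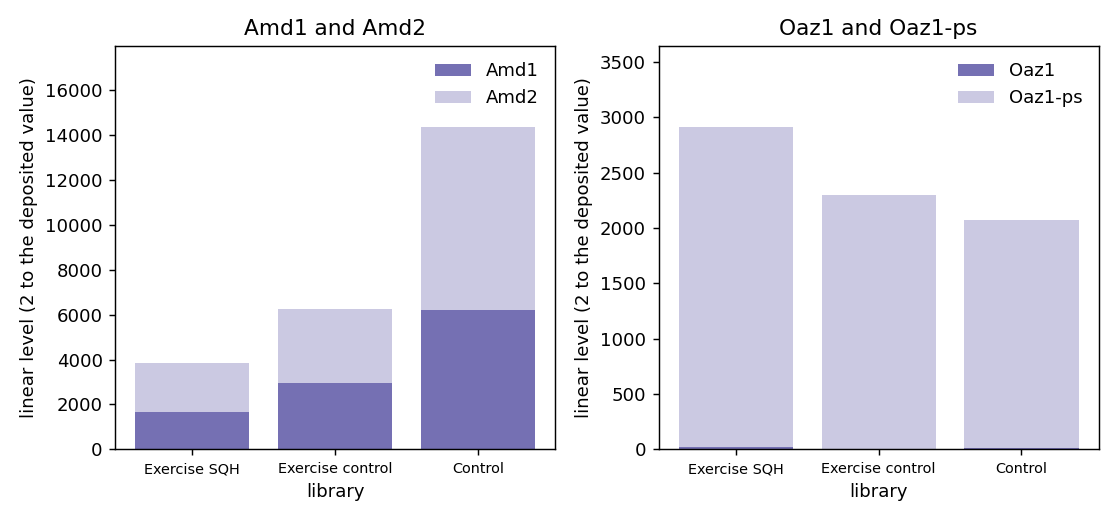
Linear level (2 raised to the deposited value) of the Amd1 and Amd2 rows and of the Oaz1 and Oaz1-ps rows, stacked for each library. The Amd sum is 3850 in Exercise SQH, 6250 in Exercise control and 14364 in Control, while nearly all of the summed Oaz1 and Oaz1-ps level lies on the pseudogene row. Which of these genes the reads came from was not tested.

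Odc1 encodes ornithine decarboxylase, the first and rate-limiting enzyme of the pathway, at chr12:17544794-17551505 on the plus strand. It stood at 7.97 in Exercise SQH, 7.98 in Exercise control and 7.90 in Control, from 326, 212 and 254 reads. All differences lay within their counting error, at 0.07 ± 0.12 for Exercise SQH against Control, -0.01 ± 0.13 for Exercise SQH against Exercise control and 0.08 ± 0.13 for Exercise control against Control. The counting interval for Exercise SQH against Control ran from -0.17 to 0.31. The ratio of the Amd genes to Odc1 differed between libraries. Within each library, the Amd sum was 15.4-fold above Odc1 in Exercise SQH, 24.8-fold in Exercise control and 60.3-fold in Control. A 3' read count does not grow with transcript length, and a ratio within a library does not depend on how libraries were scaled.

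Azin1 encodes antizyme inhibitor, an inactive relative of ornithine decarboxylase that captures antizyme. It stood at 8.92 in Exercise SQH, 8.06 in Exercise control and 8.41 in Control. Exercise SQH was the highest of the libraries, but no difference reached 2-fold. Azin1 differed by 0.86 ± 0.11 between Exercise SQH and Exercise control, by 0.51 ± 0.095 between Exercise SQH and Control and by -0.35 ± 0.12 between Exercise control and Control.

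Oaz1 encodes antizyme, which binds ornithine decarboxylase and delivers it to the proteasome. Its messenger RNA is read through a stop codon by a shift of the ribosome to the next frame, and polyamines are known to promote that shift. The region of the shift is shown for Oaz1 and for the processed pseudogene Oaz1-ps because both are the same there, base for base over 60 bases. Capitals mark the stop codon of the first frame. The coordinates are chr10:80828265-80828324 on the plus strand for Oaz1 and chr17:17345907-17345966 on the minus strand for Oaz1-ps, from GENCODE M21 on GRCm38.
Oaz1 frameshift region: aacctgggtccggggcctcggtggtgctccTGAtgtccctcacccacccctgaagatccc
Oaz1-ps frameshift region: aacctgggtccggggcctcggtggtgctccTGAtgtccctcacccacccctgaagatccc
The longest shared run of the annotated transcripts is 480 bases, and 52.2% of the windows of 50 bases of the Oaz1 transcript occur unchanged in Oaz1-ps. GENCODE ends the pseudogene at the last codon, after 685 bases, while RefSeq gives it 963 bases. On the GENCODE model 65 of the 351 windows in the last 400 bases of Oaz1 are shared, and bases beyond that model were not analysed here.

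The Oaz1 row stood at 4.53 in Exercise SQH, 1.29 in Exercise control and 3.996 in Control, from about 30, 2 and 17 reads. The Oaz1-ps row stood at 11.499, 11.17 and 11.004 in the same order, from about 3769, 1937 and 2188 reads. Of the summed signal, the Oaz1 row held 0.79% in Exercise SQH, 0.11% in Exercise control and 0.77% in Control. The sum differed by 0.50 ± 0.039 between Exercise SQH and Control, by 0.34 ± 0.04 between Exercise SQH and Exercise control and by 0.15 ± 0.045 between Exercise control and Control. None of these reached 2-fold. The Oaz1 row alone lay below the expression minimum, and its difference of -2.71 between Exercise control and Control had a counting interval from -5.91 to -0.67. The Oaz1 row is too small a share of the sum for its own difference to show there.

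Srm encodes spermidine synthase and Sms spermine synthase, which add the aminopropyl groups. Srm was weakly measured, at 5.20 in Exercise SQH, 4.42 in Exercise control and 4.16 in Control, from about 48, 18 and 19 reads, and lay below the minimum. Its difference of 1.05 between Exercise SQH and Control had a counting interval from 0.25 to 1.90. Sms, on the X chromosome, stood at 9.10 in Exercise SQH, 9.26 in Exercise control and 8.61 in Control. Both exercise libraries were above Control, by 0.50 ± 0.089 in Exercise SQH and by 0.65 ± 0.095 in Exercise control, short of 2-fold. Exercise SQH against Exercise control was -0.16 ± 0.083. The Amd sum was 7.01-fold above Sms in Exercise SQH, 10.2-fold in Exercise control and 36.9-fold in Control.

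**Figure D3:**
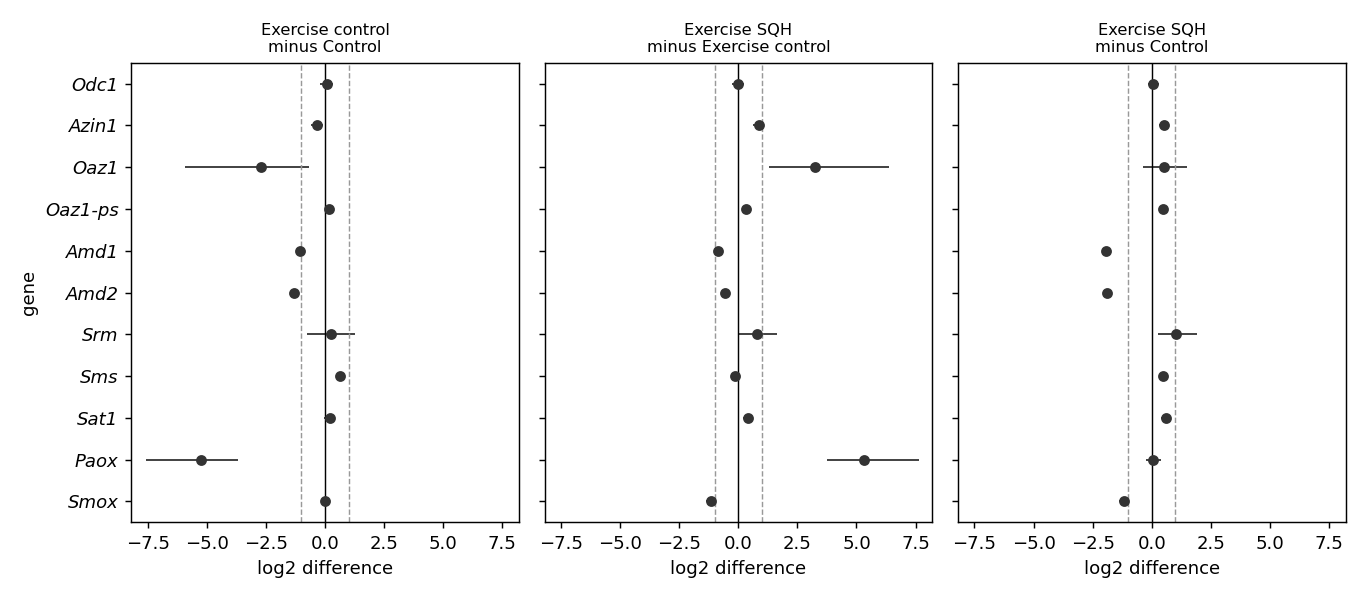
Log2 difference of each polyamine gene and of Oaz1-ps in the 3 comparisons, with 95% counting intervals (bars) and the size rule of 1 on either side (dashed lines). Amd1 and Amd2 lie near -1.9 in Exercise SQH minus Control, and Paox lies at -5.25 and 5.31 in the comparisons that hold the Exercise control library.

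The acetylation route of breakdown starts with Sat1, which encodes the enzyme that acetylates spermidine and spermine. Sat1 stood at 8.99 in Exercise SQH, 8.59 in Exercise control and 8.39 in Control. The order ran opposite to that of the Amd genes, but the widest gap, Exercise SQH against Control, was 0.60 ± 0.095 and was not called. It was 0.40 ± 0.098 for Exercise SQH against Exercise control and 0.20 ± 0.11 for Exercise control against Control.

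Smox encodes spermine oxidase, which turns spermine straight back into spermidine and releases hydrogen peroxide. It lies at chr2:131491496-131525922 on the plus strand. Smox stood at 7.82 in Exercise SQH, and at 8.98 in both Exercise control and Control. Exercise SQH was the low library, from about 294, 424 and 536 reads. Smox was 2.23-fold lower in Exercise SQH than in Exercise control (-1.15 ± 0.11) and 2.23-fold lower than in Control (-1.15 ± 0.10). Of the 8 alternative settings, only centring, quantile normalization and the pseudocount changed these values, which then ran from -1.23 to -1.12. The call held in both comparisons under them. It also held with the minimum at the 75th percentile or over the 2 libraries compared, which Smox passed. Dropping the minimum, the 1.5-fold rule and summed copies of other genes could not end the call. The difference of 0.00 ± 0.094 between Exercise control and Control had a counting interval from -0.19 to 0.19. The balance of Smox and Sat1 turned over. Smox was 2.25-fold below Sat1 in Exercise SQH, against 1.30-fold above it in Exercise control and 1.498-fold above it in Control.

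Paox encodes the oxidase of peroxisomes that acts on acetylated polyamines. It stood at 7.17 in Exercise SQH, 1.86 in Exercise control and 7.11 in Control, from about 187, 3 and 147 reads. Exercise SQH and Control differed by 0.06 ± 0.16, and Exercise control was almost without reads. The difference was -5.25 for Exercise control against Control, with a counting interval from -7.57 to -3.70, and 5.31 for Exercise SQH against Exercise control, with an interval from 3.76 to 7.62. Paox passed the minimum through the libraries in which it was high.

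Paox spans chr7:140115799-140137224 on the plus strand in GENCODE, while RefSeq ends it at 140134334, and which end the authors counted is not given in the sources used here. Its exons share 142 bases with Echs1, a fatty acid oxidation gene of the opposite strand, at chr7:140115799-140115940. That overlap lies 21284 bases before the annotated GENCODE end of Paox along the genome, introns included. None of it falls in the last 500 bases of the GENCODE transcript. Echs1 stood at 10.20 in Exercise SQH, 10.57 in Exercise control and 10.53 in Control. Whether reads of Echs1 entered the Paox row was not tested.

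Read over the set, 3 of the 10 genes were called lower in Exercise SQH than in Control (Amd1, Amd2 and Smox) and none higher, where 1.26% of all tested rows were lower and 1.76% higher. The median difference was 0.28 over the 10 genes, with 7 above 0 and 3 below, and 0.07 over the 8 that reached the minimum, against -0.015 over all rows past it. Exercise control against Control also had 3 called lower (Amd1, Amd2 and Paox) and none higher, against 5.33% and 2.95% of all rows, with a median of -0.17 over the 10 genes and over the 8, against -0.045 over all rows past the minimum. In Exercise SQH against Exercise control, Smox was called lower and Paox higher, against 2.33% and 5.68% of all rows, and the median was 0.20 over the 10 genes but -0.08 over the 8 that reached the minimum, against 0.03 over all rows past it. The sign of this median depends on whether Oaz1 and Srm are included. These comparisons share libraries, Amd1 and Amd2 may be 1 measurement, and the genes were proposed with these values known, so the shares are not read as a result about the set.

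**Figure D4:**
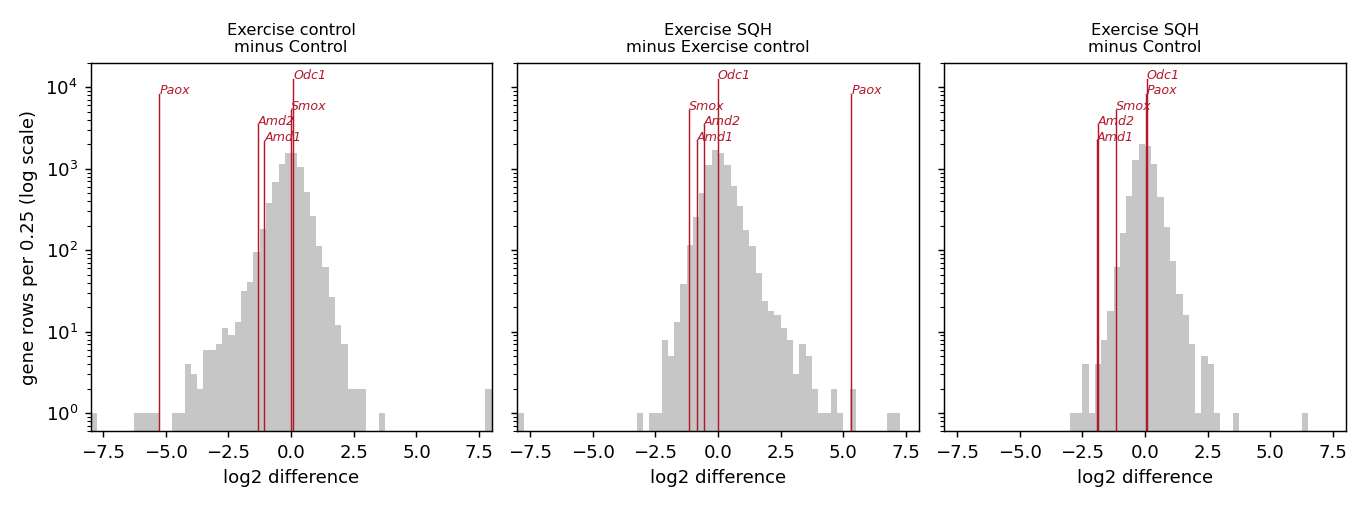
Distribution of the log2 difference over the 7857 rows past the minimum in each comparison (grey bars, logarithmic vertical axis, with rows beyond 8 in the outermost bars), with 5 polyamine genes marked. In Exercise SQH minus Control, Amd1 and Amd2 lie in the sparse lower tail, the 8th and 9th most negative, while Odc1 and Paox lie in the middle.

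Beyond the 10 genes, 69 related genes in 7 lists were examined, of which 29 reached the minimum. Exercise control against Control had 4 of these 29 higher and 3 lower, with a median of -0.075, where 2.95% of all rows were higher and 5.33% lower. Exercise SQH against Exercise control had 4 higher and 2 lower, with a median of 0.15, where 5.68% of all rows were higher and 2.33% lower. Exercise SQH against Control had 2 higher and none lower, with a median of 0.02, where 1.76% of all rows were higher and 1.26% lower.

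Of the 9 related genes called in any comparison, 8 belonged to the lists of supply and transport, which held 14 of the 29 genes past the minimum. The share of all rows called in any comparison was not computed, so this count is not read as a result about these lists. Whether these lists differ from the others was not tested. In the list of arginine and ornithine supply, 7 of 17 genes reached the minimum, with a median of 0.48 in Exercise control against Control. Slc25a29 encodes a carrier that brings arginine and other basic amino acids into mitochondria. It was highest in Exercise control, at 7.988, against 6.32 in Exercise SQH and 5.16 in Control. Slc25a29 differed by 2.83 ± 0.25 for Exercise control against Control and by 1.17 ± 0.27 for Exercise SQH against Control. Nos1, the neuronal nitric oxide synthase, which also uses arginine, was higher in Exercise control than in Control (1.23 ± 0.14) and lower in Exercise SQH than in Exercise control (-1.58 ± 0.14). The arginine transporter genes went apart, with Slc7a1 at 4.77 in Exercise control, against 6.70 in Control (-1.93 ± 0.33), and Slc7a2 at 9.87 in Exercise control, against 8.85 in Control (1.01 ± 0.083). Slc7a1 was higher in Exercise SQH than in Exercise control (2.30 ± 0.32). Arg2, the mitochondrial arginase that forms ornithine, was lower in Exercise control than in Control (-1.03 ± 0.13). The calls of Slc7a2 and Arg2 rest on differences just past the rule. Slc7a1 had about 23 reads in Exercise control and Slc25a29 about 38 in Control. Both passed the minimum through the libraries in which they were high.

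Among 13 genes of polyamine transport, 7 reached the minimum. Slc22a2, an organic cation transporter gene, stood at 6.87 in Exercise SQH, 4.78 in Exercise control and 7.86 in Control, and was lower in Exercise control than in Control (-3.08 ± 0.31) and higher in Exercise SQH than in Exercise control (2.09 ± 0.32). Slc22a3, its relative, was higher than in Control in both exercise libraries, by 1.45 ± 0.24 in Exercise SQH and 1.37 ± 0.25 in Exercise control. Atp13a3, which encodes a polyamine-transporting ATPase, was higher in Exercise SQH than in Exercise control (1.05 ± 0.18). That call also rests on a difference just past the rule, with a counting interval from 0.69 to 1.42. Slc22a2 had about 23 reads in Exercise control and Slc22a3 about 49 in Control. They also passed the minimum through the libraries in which they were high. Calls of the related genes were not repeated under the alternative settings.

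The lists next to the Amd step showed no call. Of 16 genes of the methionine and S-adenosylmethionine cycle 6 reached the minimum, and their medians were 0.23 in Exercise SQH against Control, 0.24 in Exercise SQH against Exercise control and -0.27 in Exercise control against Control. Mat2a, the methionine adenosyltransferase that makes the substrate of adenosylmethionine decarboxylase, stood at 10.62 in Exercise SQH, 10.77 in Exercise control and 10.99 in Control, with a widest difference of -0.37 ± 0.044, for Exercise SQH against Control. Mtr, methionine synthase, had the largest difference of the list, 0.97 ± 0.092 between Exercise SQH and Exercise control. In methylthioadenosine salvage, which recycles the by-product of spermidine and spermine synthesis, 2 of 6 genes reached the minimum, and Got1 had the largest difference, 0.76 ± 0.022 in Exercise control against Control. Spermidine is also the source of hypusine, a modified lysine of the translation factor encoded by Eif5a. Of the 4 hypusine genes 3 reached the minimum, and Eif5a had the largest difference, 0.39 ± 0.05 in Exercise SQH against Exercise control. Among the paralogs of the members only Oaz2, a second antizyme, reached the minimum, at 9.53 in Exercise SQH, 9.38 in Exercise control and 9.86 in Control.

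Of 4 regulators, 3 reached the minimum. Max, the partner of the MYC protein, was higher in Exercise SQH than in Exercise control by 1.005 ± 0.12, at the edge of the rule. Of the member promoters, 8 genes had RefSeq windows, 10 windows in all, from 250 bases before to 50 after the start. The E-box CACGTG, searched on both strands, was in 1 of the Sms windows and in 7.15% of all windows. The letters TATAAA were in the Oaz1 window and in 13.6% of all windows.

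**Figure D5:**
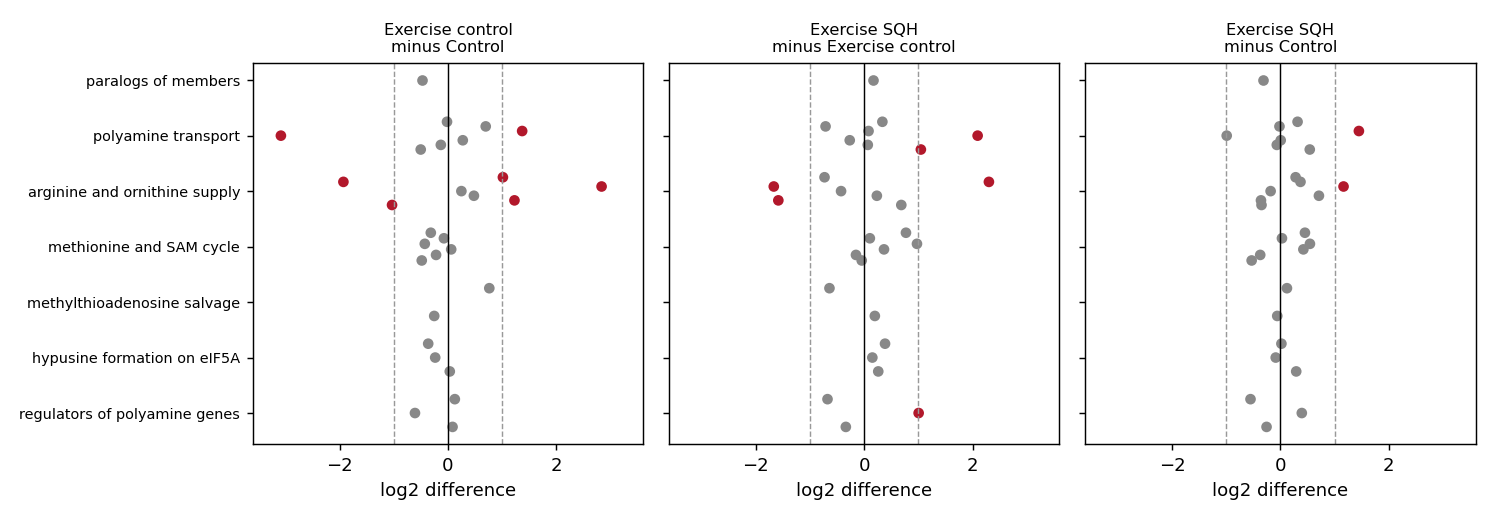
Log2 difference of the 29 related genes past the minimum, by list, in each comparison, with called genes in red and the size rule of 1 as dashed lines. Red points lie almost all in the lists of polyamine transport and of arginine and ornithine supply, which hold 14 of the 29 genes, with Max as the exception. Whether the lists differ was not tested.

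Genes whose levels over the 3 libraries were most like those of the called members are given by the root mean square distance of their centred log2 values, over 3 points. Nearest to Amd1 were Gdap1 (0.14), Thrsp (0.14) and Inafm1 (0.16). Amd2 was nearest to Thrsp (0.072), with Rgs5 (0.18) and Slc25a25 (0.21) farther off. Rows within 0.1 numbered 0 for Amd1 and 1 for Amd2. For Smox they numbered 15, led by Nt5c3b (0.039), Pik3cd (0.039) and Spred2 (0.048). Paox had none within 0.1, and Ces5a (0.37), Sln (0.38) and Mhrt (0.46) came nearest. Sln, a slow-fibre marker, stood at 10.56 in Exercise SQH, 5.74 in Exercise control and 11.43 in Control.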

How the data were processed

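Skeletal muscle RNA of 3 groups, 1 library each, was sequenced from 500 ng of total RNA with the Lexogen QuantSeq 3' kit, per the labels' protocols. Bowtie2, edgeR and the build mm10 are named in the submitters' processing notes, with no version or role. How reads were counted, on which annotation and with what strand setting is not given in the sources used here. The deposited log2 values, to 3 decimals, carry no unit in the file headers. Raised to the linear scale, low values bunch at multiples of 0.768 (Exercise SQH), 1.187 (Exercise control) and 0.9385 (Control), and 85.4%, 95.8% and 100% of values from above 1 to 9 lay within 0.2 of a step of a multiple. Reads are the linear value over the step, and are approximate, so no count model was fitted.

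Differences are of deposited log2 values, called by size as described. The minimum of 66.5 is the median of the 15714 rows above 0 somewhere. Counting errors treat reads as Poisson, and 95% intervals are exact for a ratio of counts. The members and lists were chosen with earlier results of these data known. Named genes are all members, called genes of the related lists or else the members with the largest difference, and the 3 nearest patterns per called member. Alternatives were centring, quantile normalization, a pseudocount of 10, other minimums, a 1.5-fold rule and, added after seeing the data, a minimum over the 2 libraries compared, summed copies, and the Amd sum after centring and quantile normalization. Positions and transcripts are GENCODE M21 (GRCm38), and promoter windows are RefSeq (GRCm38.p6). No protein sequences were used here, and the values of 1 listed gene are not reported here. Python 3.11.15 with numpy, pandas, scipy and matplotlib was used.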

Additional observations from a re-analysis of the deposited data

How the results depend on the processing

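With no replicates, a library could not be left out of a comparison, and no paired analysis was possible because the labels give no replicate numbers and there is 1 library per group. Under the 8 alternatives the number of called members ranged from 2 to 4 in Exercise control against Control (3 as reported) and in Exercise SQH against Control (3 as reported). In Exercise SQH against Exercise control (2 as reported) it was 1 with the minimum at the 75th percentile, which leaves Paox untested, and 4 with the 1.5-fold rule, which adds Amd1 (-0.85) and Azin1 (0.86). The lowest number in Exercise SQH against Control, 2, came only with summed copies, which count Amd1 and Amd2 once. Of 237 single values taken under the alternatives, none of a called gene changed sign. Among them 220 kept their side of the rule or moved within counting error, 7 passed it newly, 4 lost it and 6 moved. Only centring, quantile normalization and the pseudocount changed the values themselves. The other settings left each value as it was, so under them no value could move or change sign. Centring and quantile normalization ended the call of Amd1 in Exercise control against Control. A pseudocount of 10 brought Paox to -3.44 in Exercise control against Control and to 3.50 in Exercise SQH against Exercise control. Without a minimum, Oaz1 and Srm also passed the 2-fold rule. Over all rows, higher calls were 35.6% of calls in Exercise control against Control and 45.7% after centring. They were 70.9% in Exercise SQH against Exercise control and 61.4% after centring. Few reads limit how well Paox and Oaz1 were measured in Exercise control, with about 3 and 2 reads, and Srm in every library.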
